A study of Mus musculus with 4 samples.

Results

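The cytosolic ribosomal proteins are the protein parts of the ribosomes that translate nuclear-encoded messenger RNA. They were taken by symbol, Rps for the small subunit and Rpl for the large one, from probe sets that the array's annotation assigned to a single gene. The symbol could carry a trailing paralogue letter, Rplp0, Rplp1, Rplp2 and Rpsa were added, and the Rps6k kinases were left out. This gave 105 probe sets for 49 genes, 23 Rps and 26 Rpl, of 18193 genes named on the array, and the brightest probe set stood for each gene. The rule reads symbols and no values, and the set was picked with earlier results of these data known. Of 84 protein-coding symbols of this pattern in the RefSeq gene table, 36 had no probe set of their own, and 28 of these 36 appeared on probe sets that name several genes, so the 49 genes are part of the ribosome and not the whole of it.

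The arrays came from 4 mouse embryonic stem (ES) cell lines, each hybridised as total RNA to 1 Affymetrix mouse expression array. The control group was cKO lines 1 and 2, in which the gene for UTX (Kdm6a, an X-linked demethylase of histone H3 lysine 27) is a conditional allele, and the other group was KO lines 1 and 2, labelled as UTX knockout. All 4 lines were grown on irradiated embryonic fibroblast feeders in serum and leukaemia inhibitory factor, passaged on gelatin to clear the feeders and collected after a night on gelatin. The labels call the lines independent only for cKO, give no day or culture batch and do not say whether a KO line was made from the cKO line of the same number. With 2 lines a group, a p-value here reflects only how far these 4 arrays scatter, which may be partly technical, and an exact permutation test of 1 gene cannot go below p = 0.333.

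A ribosome is built from ribosomal RNA and one copy of most ribosomal proteins, so cells keep the supply of these proteins in balance. Their messenger RNAs are among the most abundant in a growing cell and share a 5′ terminal oligopyrimidine tract (TOP), a cytosine followed by a run of pyrimidines, through which the mTOR kinase controls their translation. ES cells divide fast and need many new ribosomes. Ribosomal protein genes also have many processed pseudogenes in the mouse genome, which is why many probe sets for them are shared between loci.

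The labels and the arrays were checked first. Kdm6a read 658 and 415 in cKO lines 1 and 2 against 265 and 198 in KO lines 1 and 2, a log2 change of -1.17 (limma, adjusted p = 0.0884), and whether its probe set lies in the deleted part was not examined. The mean of its 4 probe sets gave -0.57 (adjusted p = 0.522 in limma). The change passed in limma with centring on the array median (adjusted p = 0.00914), with a block for the line number (0.00811), without cKO line 2 (0.0156) and without KO line 1 (0.00985). The defining ES cell markers were present on every array, with 8 of 8 markers above the filter used for testing and a summed signal between 75010 and 87946. In limma 0 of the 8 were called, and 3 had an unadjusted p under 0.05, where the share over all genes was 13.8%. Their changes ran from -0.19 to 0.94. Sox2 had the smallest p, with a change of 0.37, and passed in limma with a block for the line number (adjusted p = 0.0166). The summed signal of 11 measured feeder fibroblast markers was 3408 and 2292 in cKO lines 1 and 2 against 1367 and 1401 in KO lines 1 and 2. All 7 that were tested were negative, and 2 fell, Col5a1 (-1.43) and Thy1 (-1.20). The summed signal of 9 trophectoderm markers was 19960, 14059, 8458 and 5930 in the same order, most of it from Krt8 and Krt18. Of 6 tested, 4 were negative and 2 positive, Krt8 (-1.81) and Krt18 (-1.57) fell, and Tfap2c stood at 0.79 without passing. The summed signal of 9 primitive endoderm markers was 4147, 2963, 2545 and 2472. Of 3 tested, Col4a1 fell (-1.15), Lama1 rose (0.87) and Dab2 stood at -1.34 without passing. These 6 calls (limma, adjusted p from 0.0113 to 0.0483) were all lost without the variance trend. With no filter, Col5a1, Thy1, Col4a1 and Lama1 were not called (limma, adjusted p from 0.0606 to 0.112). The same 4 were not called with the mean of all probe sets (limma, adjusted p from 0.0513 to 0.15). In limma the call of Col4a1 was lost with quantile normalization (adjusted p = 0.0529) and that of Lama1 with centring on the array median (0.135). Those of Col5a1 (adjusted p = 0.0938) and Col4a1 (0.0911) were also lost in limma without cKO line 1. That of Thy1 was lost without cKO line 2 (0.163) or KO line 2 (0.0574), and that of Lama1 without cKO line 1 (0.0791), cKO line 2 (0.105) or KO line 2 (0.104). Of these lists 1, 2 and 2 markers were under the filter level on every array. The 3 sums were lower in the KO lines while single markers went either way, and their part in the results on ribosomal proteins was not tested. In bulk RNA, fewer cells of a type and less RNA per cell cannot be told apart.

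No ribosomal protein gene differed between KO and cKO lines at the threshold used, an adjusted p under 0.05 in limma. Of the 49 genes, 47 were bright enough to be tested, and 0 of these 47 were called in either direction, where 2.2% of all 10916 genes tested were called, 0.632% as higher and 1.57% as lower in KO. The count was also 0 in limma without a variance trend, and it was 1, Rpl37, with the line number as a block. At an unadjusted p under 0.05 there were 3 of the 47, Rpl37, Rpl27a and Rps20, where the share over all genes was 13.8%. Changes were on the scale of log2(signal + 4.79), and 19 of the 47 were positive and 28 negative. The median change was -0.02 against 0.01 for all genes tested, and the median size, without the sign, was 0.08 against 0.17. Changes smaller than 0.2 were found for 42 of the 47 genes (89.4%) and for 55.9% of all genes. The 22 tested small subunit genes ran from -0.22 to 0.18 with a median of -0.02, and the 25 large subunit genes from -0.21 to 0.61 with a median of -0.04.

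The standard errors were small for these genes. Their median was 0.08 for the change, against 0.19 over all genes tested. Each one drew more on genes of similar signal (5.13 prior degrees of freedom in limma) than on the gene's own arrays (2 residual). For 42 of 47 genes the 95% interval of the change lay within a 1.5-fold difference in either direction, against 42.1% of all genes tested. The genes whose interval reached past 1.5-fold were Rpl27a, Rpl37, Rpl39l, Rpl39 and Rpl14. All 22 small subunit genes tested had their interval within these bounds, and 20 of the 25 large subunit genes did. These intervals rest on the same borrowed variance and are not adjusted for the number of genes.

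**Figure D1:**
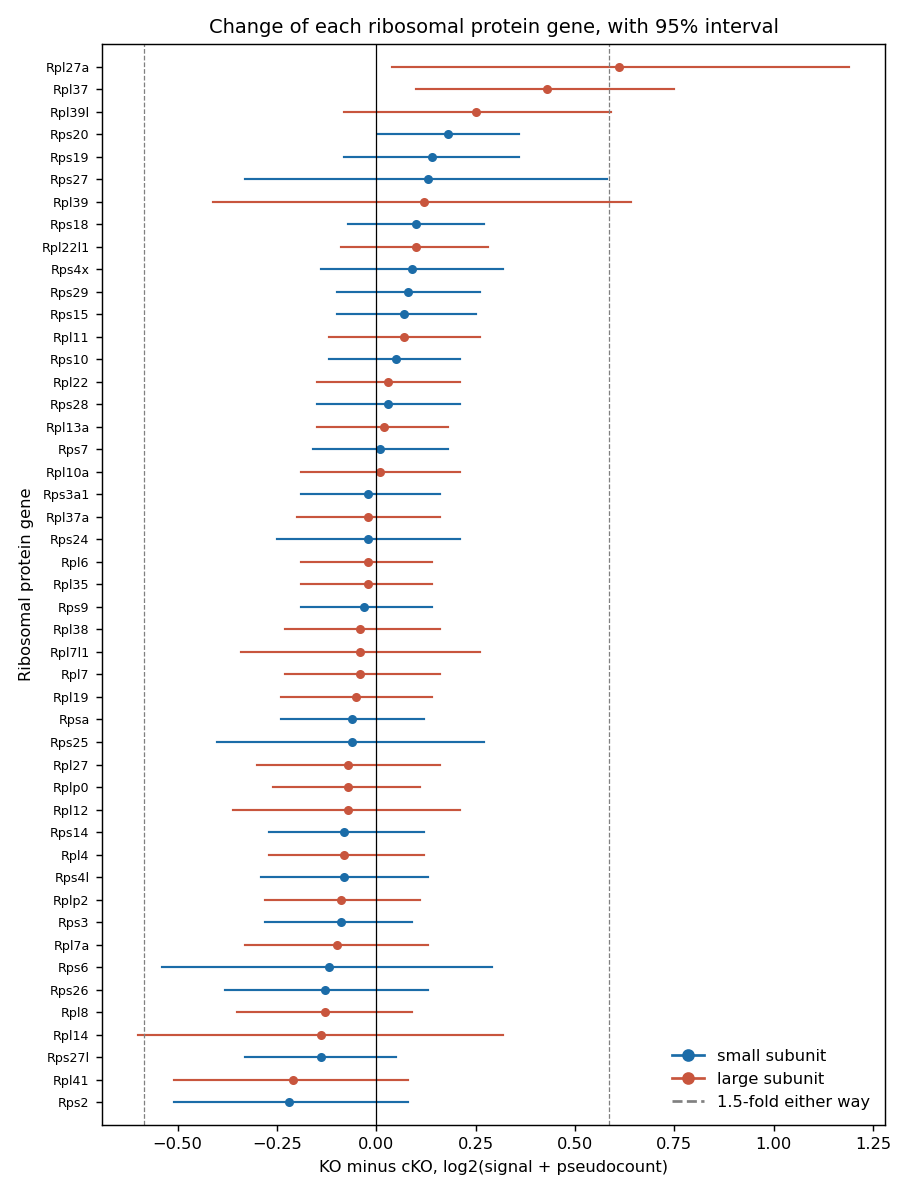
The change of each of the 47 tested ribosomal protein genes, KO minus cKO on the log2(signal + 4.79) scale, is drawn as a point with its 95% interval from limma, blue for the small and red for the large subunit, with dashed lines at 1.5-fold. Most points lie close to 0, and the intervals of Rpl27a, Rpl37, Rpl39l, Rpl39 and Rpl14 reach past a dashed line.

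The signals sat at the top of the array's range. Of the 100 brightest probe sets on the array, 32 belonged to these 49 genes and another 40 named a ribosomal protein gene together with other genes. The mean signal was 10000 or more for 37 of the genes, and the brightest, Rps18, a small subunit protein, read 23989 and 22878 in cKO lines 1 and 2 against 25877 and 24361 in KO lines 1 and 2. The next in signal were Rps29, with a change of 0.08, and Rps3a1 and Rpl37a, each at -0.02. Probe sets differ in how well they hybridise, so a signal does not rank one gene's messenger RNA against another's. Among the 37 bright genes the change ran from -0.22 to 0.18 with a median of -0.02. Among the 10 dimmer tested genes it ran from -0.14 to 0.61 with a median of 0.04. Across all 294 tested genes with a mean signal of 10000 or more, which include these 37, the median size of the change was 0.07. This was the same to 2 decimals as the 0.07 of the 37 ribosomal protein genes. Of these 294, 98.6% had their interval within 1.5-fold. The narrow spread went with the signal level, and the part of probe saturation in it was not tested.

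**Figure D2:**
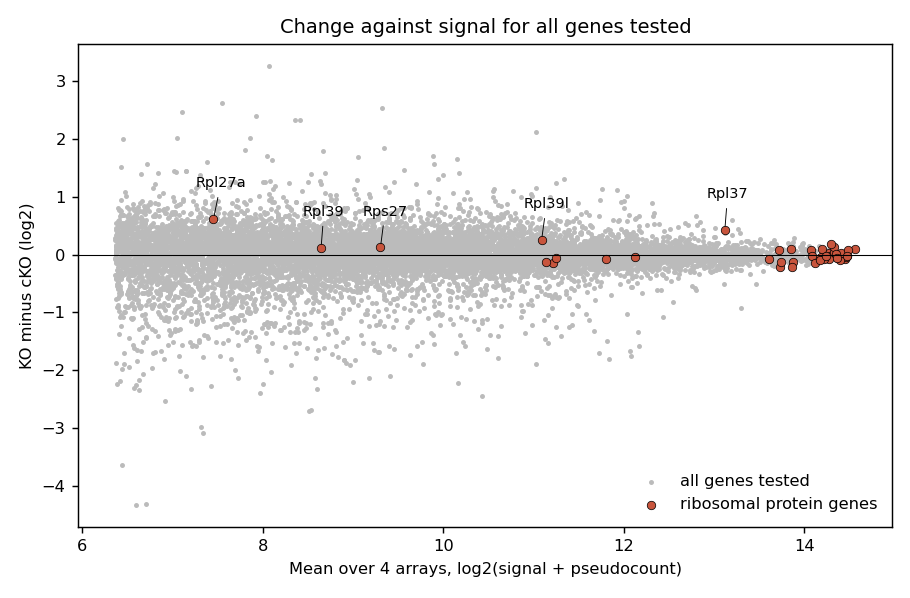
The change (KO minus cKO, log2) is plotted against the mean log2(signal + 4.79) over the 4 arrays for 10916 genes (grey) and the 47 tested ribosomal protein genes (red). Most red points lie at the right end, where the grey cloud is also narrow, and Rpl27a and Rpl37 stand highest.

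The largest positive change of a tested gene was that of Rpl27a, a large subunit protein, whose probe set was dim. It read 136 and 138 in cKO lines 1 and 2 against 187 and 241 in KO lines 1 and 2. Both KO values lay above both cKO values, and the change was 0.61 (SE 0.24, adjusted p = 0.323 in limma). The other Rpl27a probe set read 4.91, 3.59, 6.88 and 5.42, under the filter level on every array. Rpl27a is a standard part of the ribosome, and both of its probe sets were dim here.

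Rpl37, a zinc-binding protein of the large subunit, had the second largest positive change, with a mean signal of 9026. It read 8588 and 6852 in cKO lines 1 and 2 against 11125 and 9539 in KO lines 1 and 2, 7720 ± 1227 against 10332 ± 1122 (SD, n = 2 each). The groups did not overlap, and the change was 0.43 (SE 0.14, 95% interval 0.10 to 0.75, unadjusted p = 0.0172, adjusted p = 0.221 in limma). Line 1 read above line 2 in both groups. Taken from line 1 alone the difference was 0.37 and from line 2 alone 0.48. The labels do not say that equal numbers mark related lines. With the line number as a block the change stayed at 0.43 and passed with adjusted p = 0.0117 in limma, where 9.6% of all genes passed. Without cKO line 2 the change was 0.26. Rpl37 had 1 probe set, and its name ends in _x_at, which marks probes that may also match other sequences.

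Rps20, a small subunit protein, followed the same order of lines at a smaller size. It read 19561 and 18289 in cKO lines 1 and 2 against 21904 and 20998 in KO lines 1 and 2, with no overlap between the groups. The change was 0.18 (SE 0.08, adjusted p = 0.346 in limma). A second bright Rps20 probe set read 19192, 18281, 20898 and 20299, a change of 0.14. The other Rps20 probe sets were dim and ran in opposite directions, at -0.14 and 0.31, so the sign turned to -0.14 when probe sets ending in _x_at or _s_at were left out.

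Rpl39l, a paralogue of Rpl39 best known from testis, read 2142 and 1852 in cKO lines 1 and 2 against 2372 in both KO lines. The groups did not overlap, and the change was 0.25 (SE 0.14, adjusted p = 0.531 in limma), or 0.15 without cKO line 2. Rps19, the gene first linked to Diamond-Blackfan anaemia, read 19224 and 19848 in the cKO lines against 19752 and 23445 in the KO lines. KO line 1 lay between the cKO lines and KO line 2 above them, with a change of 0.14 (adjusted p = 0.626 in limma) that was 0.02 without KO line 2 and 0.26 without KO line 1. Rps27 read 532 and 677 in the cKO lines against 720 and 597 in the KO lines, a change of 0.13 with overlapping groups.

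The largest negative changes were smaller than the positive ones. Rps2, a small subunit protein, read 16230 and 15978 in cKO lines 1 and 2 against 15768 and 12187 in KO lines 1 and 2. KO line 2 stood apart and KO line 1 lay just below the cKO lines, with a change of -0.22 (SE 0.12, adjusted p = 0.539 in limma). Rpl41, which encodes a very short basic peptide, read 15533, 13844, 14212 and 11263 in the same order of arrays. The groups overlapped, again with KO line 2 lowest, and the change was -0.21 (SE 0.13, adjusted p = 0.551 in limma). Without KO line 2 the changes were -0.03 for Rps2 and -0.05 for Rpl41, and without KO line 1 they were -0.40 and -0.38. Without cKO line 1 Rpl41 was at -0.13.

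Rps27l, a paralogue of Rps27 that is known as a p53 target, read 17834 and 19423 in cKO lines 1 and 2 against 16451 and 17310 in KO lines 1 and 2. Both KO values lay below both cKO values, with a change of -0.14 (SE 0.08, adjusted p = 0.538 in limma). Its other probe sets gave -0.03 and -0.13. Rpl14, a large subunit protein, read 2154, 2894, 2006 and 2565, so that line 2 read above line 1 in both groups, and the change was -0.14. Rpl8, which lies near the peptidyl transferase centre, read 16088, 15453, 15376 and 13463 for a change of -0.13 that was -0.04 without KO line 2 and -0.23 without KO line 1. Rps26, a small subunit protein at the messenger RNA exit, read 14521, 14049, 14392 and 11885, also a change of -0.13.

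KO line 2 was the array that set many of these values. It was the lowest of the 4 arrays for 25 of the 47 tested ribosomal protein genes (53.2%), where it was the lowest for 26.5% of all genes tested. cKO line 1 was lowest for 4, cKO line 2 for 12 and KO line 1 for 6. The median deviation from the gene's own mean was -0.06 in KO line 2, 0.05 in KO line 1, 0.02 in cKO line 1 and -0.005 in cKO line 2. The median difference between the lines, without the sign, was 0.14 between the KO lines and 0.04 between the cKO lines, against 0.21 and 0.20 over all genes. For the 294 tested genes with a mean signal of 10000 or more it was 0.09 and 0.08. For the 37 members among these 294 it was 0.13 and 0.04. Without KO line 2 the median change of the members was 0.03, and without KO line 1 it was -0.05. Large subunit genes were lowest in KO line 2 in 17 of 25 cases and small subunit genes in 8 of 22. The stalk protein Rplp0, part of the base on which elongation factors act, read 19572 and 19405 in cKO lines 1 and 2 against 19427 and 17691 in KO lines 1 and 2. Rpl4 read 20342, 20313, 20501 and 18154 and Rps3 read 19151, 19118, 18771 and 17147, with the same 3 arrays close together and KO line 2 lower. These examples were chosen after their values were seen.

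The place of KO line 2 depended on how the arrays were scaled. With quantile normalization it was lowest for 20 of 47 genes, against 24.2% of all genes. With each array centred on its median it was lowest for 2 of 47, against 10.5% of all genes, since centring shifted the line 2 arrays up as a whole. In that setting the median difference was 0.20 between the KO lines and 0.20 between the cKO lines. In the deposited scaling, the members' median for line 1 minus line 2 was 0.07 against 0.02 for all genes, and with centring it was -0.20 against -0.25.

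**Figure D3:**
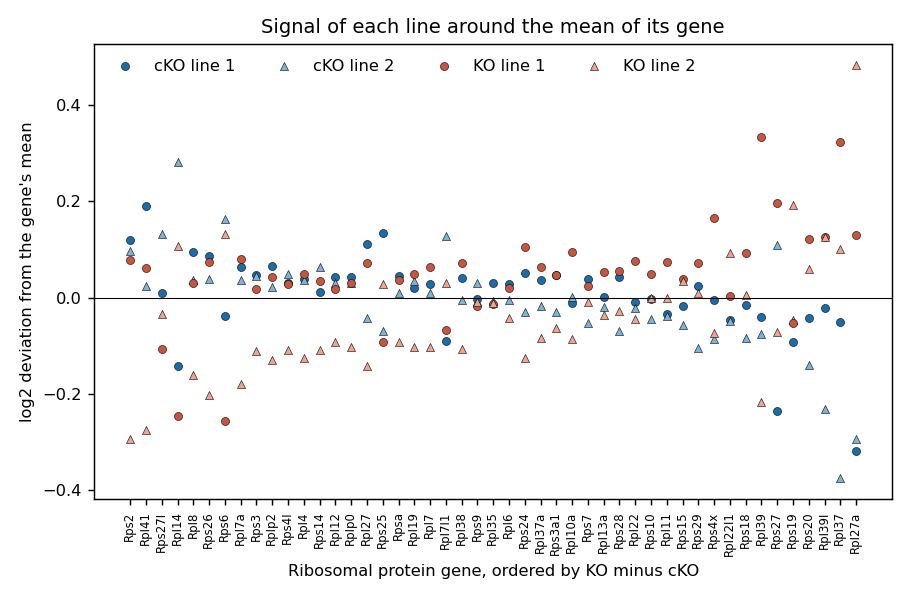
For each of 47 ribosomal protein genes, ordered by KO minus cKO, the log2 deviation of the 4 arrays from the gene's mean is shown for the cKO lines (blue) and KO lines (red), with circles for line 1 and triangles for line 2. KO line 2, the pale red triangle, is lowest for 25 genes, mostly on the left, and both KO lines stand above both cKO lines for Rpl27a, Rpl37, Rpl39l and Rps20 on the right.

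Both KO lines were above both cKO lines for 9 of the 47 genes, and both were below for 8. Over all genes tested the groups did not overlap in 42.6%, with KO above in 21.4% and KO below in 21.2%. The 9 genes with KO above were Rpl27a, Rpl37, Rpl39l, Rps20, Rps18, Rpl22l1, Rps15, Rpl11 and Rps10. The 8 with KO below were Rps2, Rps27l, Rpl8, Rps3, Rps4l, Rpl12, Rps9 and Rpl35. These directions were those of the brightest probe set of each gene. Other bright probe sets of Rps18 (-0.08 and -0.18) had both KO lines below. For Rps10 another at -0.21 had KO below, and those at 0.07 and 0.04 had KO above. Another probe set of Rpl35 (0.09) and another of Rps9 (0.43) had KO above. Further bright probe sets of Rps20 (0.14) and Rps27l (-0.13) kept the direction. Rps15 read 17002 and 16552 in the cKO lines against 17689 and 17625 in the KO lines, a change of 0.07, which shows how small a difference could separate the groups. Its other probe set read 12652 and 13632 in the cKO lines against 12221 and 9853 in the KO lines. That was a change of -0.26, with both KO lines below both cKO lines.

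Paralogue pairs let the common and the specialised form of a protein be set side by side. Rpl22, an RNA-binding protein of the large subunit, read 19621 and 19452 in cKO lines 1 and 2 against 20828 and 19164 in KO lines 1 and 2, a change of 0.03. Another bright Rpl22 probe set gave -0.01. A dimmer one read 1405, 1275, 1862 and 1506 in the same order, a change of 0.32 with both KO lines above. Its paralogue Rpl22l1 read 14346, 14321, 14852 and 15813, a change of 0.10 (adjusted p = 0.7 in limma) with the KO lines above. The Rps27 pair went in opposite directions, 0.13 for Rps27 and -0.14 for Rps27l, and the difference between these changes was not tested. Rpl39 on the X chromosome read 385 and 375 in the cKO lines against 500 and 340 in the KO lines, a change of 0.12 (SE 0.22) beside 0.25 for Rpl39l. The KO lines lay on either side of the cKO lines for Rpl39. The probe sets of Rps27 and Rpl39 were dim, with mean signals of 632 and 400 against a median of 18674 over the tested members. Both changes turned sign with 1 array left out, with ranges of -0.05 to 0.30 for Rps27 and -0.16 to 0.39 for Rpl39.

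Rpl7 had a change of -0.04 and Rpl7l1, a nucleolar relative of Rpl7, one of -0.04. Rps4x, the X-linked gene of a small subunit protein, read 18729, 17694, 21063 and 17839 with a change of 0.09, and its relative Rps4l read 12794, 12943, 12774 and 11611 with -0.08. KO line 1 was highest for Rps4x and KO line 2 lowest for Rps4l. Rpl3l, a muscle form of Rpl3, was under the filter level of 77.7, with 35.6 and 5.98 in the cKO lines against 50.5 and 30.2 in the KO lines. It was not tested. Rps16 was the other untested gene, with a single probe set that read between 0.72 and 1.1 on every array, although Rps16 is part of every small subunit. No change of Rps16 can be read from this probe set.

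The stalk proteins Rplp0 and Rplp2 had changes of -0.07 and -0.09, and Rplp2 read 22524, 21857, 22187 and 19665. Rpl11, which binds 5S ribosomal RNA and can hold the p53 ligase MDM2 in check, read 13211 and 13177 in the cKO lines against 14235 and 13520 in the KO lines, a change of 0.07 (adjusted p = 0.791 in limma). Rpsa, also known as a laminin receptor, had a change of -0.06 with 21749, 21231, 21632 and 19757. Of 16 genes known from Diamond-Blackfan anaemia, a failure of red cell production with defective ribosomal proteins, 10 were measured and tested. Of these, 0 were called, their changes ran from -0.13 to 0.14, and the median was 0.04.

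Several genes had more than 1 probe set, and these did not always go the same way. Of the 105 probe sets 95 were above the filter level, and 20 genes had at least 2 such probe sets. All probe sets shared a sign in 5 of these 20 genes and differed in sign in 15. The median gap between the highest and lowest change within a gene was 0.21, larger than the median size of change of 0.08. The widest gap was that of Rpl41, 0.55, where the brightest probe set gave -0.21 and a probe set that read 1287, 961, 1417 and 1389 gave 0.33. For Rps18 the brightest probe set had a change of 0.10, and the next in signal read 16560, 16314, 15894 and 15254, a change of -0.08. For Rps9 the brightest probe set had a change of -0.03, and one that read 8566 and 6387 in the cKO lines against 9663 and 10251 in the KO lines had 0.43.

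The ending of a probe set's name describes its design: _at for probes meant for 1 sequence, _a_at for transcripts of 1 gene, _s_at for several transcripts or genes and _x_at for probes that may also match other sequences. The brightest probe set ended in _at for 16 genes, in _a_at for 17, in _s_at for 2 and in _x_at for 14. Above the filter, the median change was -0.06 for 25 probe sets ending in _at, -0.02 for 28 ending in _a_at and 0.01 for 39 ending in _x_at. With probe sets ending in _x_at or _s_at left out, 42 genes were tested, 0 were called in limma and the median change was -0.04. Among 105 probe sets above the filter that named a ribosomal protein gene together with other genes, the median change was -0.04 and 95 had a change smaller than 0.2, with a range from -0.99 to 0.71.

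**Figure D4:**
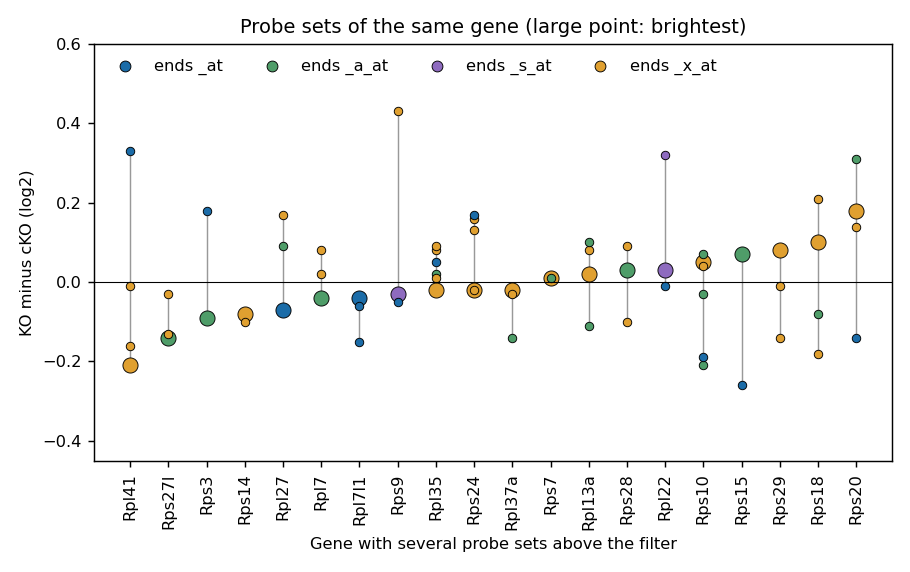
For the 20 genes with at least 2 probe sets above the filter, each point is the change (KO minus cKO, log2) of 1 probe set, coloured by the ending of its name, and the large point is the brightest. The points of a gene lie on both sides of 0 in 15 genes, and the gap is widest for Rpl41.

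The starts of the genes were read to see what sequence the members share. RefSeq starts (GRCm38.p6) were listed for 43 of the 49 genes, some with several starts, and a gene was counted if any of its starts held the sequence. A C followed by at least 4 pyrimidines began exactly at the annotated start in 8 of 43 genes (18.6%), against 3.01% of 27025 genes in the table and 3.04% of the tested genes in it. It began within 10 bases of the start in 27 of 43 (62.8%), against 34.4% of all and 37.3% of tested genes. The 8 genes are shown because such a tract begins exactly at their annotated start. The TOP tract is defined at the 5′ end of the messenger RNA, and where these messenger RNAs begin was not measured. Each line gives 15 bases before and 15 after the annotated start, 5′ to 3′ on the strand of the gene, with the tract in capitals.
Rpl35 (chr2:39005117-39005146, minus strand): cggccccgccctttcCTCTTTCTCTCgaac
Rps10 (chr17:27635230-27635259, minus strand): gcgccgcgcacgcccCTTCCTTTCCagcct
Rps6 (chr4:86857353-86857382, minus strand): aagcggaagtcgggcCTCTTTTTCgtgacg
Rps18 (chr17:33955651-33955680, minus strand): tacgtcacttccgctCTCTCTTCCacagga
Rpl38 (chr11:114668565-114668594, plus strand): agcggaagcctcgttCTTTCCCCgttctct
Rps27 (chr3:90213634-90213663, minus strand): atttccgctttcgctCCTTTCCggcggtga
Rpl14 (chr9:120571502-120571531, plus strand): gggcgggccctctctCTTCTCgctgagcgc
Rplp2 (chr7:141447636-141447665, plus strand): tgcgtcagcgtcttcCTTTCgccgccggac

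These 8 genes had changes from -0.14 to 0.13 with a median of -0.03. The 33 tested genes with a listed start and no tract exactly there had a median of -0.02. This split follows the annotated starts and does not tell TOP messenger RNAs from others. The tract is a feature of the messenger RNA that bears on translation, which these arrays did not measure. Rps6, the small subunit protein that S6 kinases phosphorylate, is among the 8 and read 2196 and 2526 in the cKO lines against 1886 and 2472 in the KO lines, a change of -0.12 with overlapping groups. Rpl38, known for its part in the translation of Hox messenger RNAs, read 23190, 22487, 23711 and 20939, a change of -0.04.

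The core of the ETS family binding motif, CCGGAAG, was more common in the members' promoters. It was present on either strand within 250 bases before to 50 after the start in 21 of 43 genes (48.8%), against 9.93% of all genes in the table and 21.1% of tested genes. GGGCGG, the GC box, was present in 58.1% of members against 71.2% of tested and 38.2% of all genes, TATAAA in 14% against 8.3% and 15.7%, and AAGATGGC, a YY1 motif, in 9.3% against 5.57% and 3.19%. CCGGAAG and AAGATGGC share the letters AAG, so a match of one can overlap a match of the other. Of the genes with the largest changes, Rpl27a, Rpl37 and Rpl39l on the positive side and Rps2, Rpl41, Rps27l and Rps26 on the negative side held CCGGAAG, while Rps19, Rps27 and Rpl14 have a listed start and did not. The first 5 are shown because genes at both ends of the order share the motif. Each line is 30 bases on the strand of the gene, with the match in capitals, which reads CTTCCGG where the motif is on the opposite strand.
Rpl27a (chr7:109519015-109519044, plus strand): agctaccggggCTTCCGGgggcgggcgcca
Rpl37 (chr15:5116579-5116608, plus strand): accaagacccgCCGGAAGtagtttcctggg
Rpl39l (chr16:10170125-10170154, plus strand): atttgccgtacCCGGAAGcgctggaagcta
Rps2 (chr17:24719925-24719954, plus strand): atttatacgtcCTTCCGGctggtgtagggc
Rpl41 (chr10:128549206-128549235, minus strand): tagtaaggcagCCGGAAGtcgctgtctcga

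The 21 genes with CCGGAAG had a median change of -0.02, and the 20 tested genes with a listed start and no CCGGAAG had a median of -0.02. The range was -0.22 to 0.61 with the motif and -0.14 to 0.14 without it. A match of letters is a description of the window and not a measured binding site.

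The other genes of ribosome production and translation were read from lists, each to be set beside the 2.2% called among all 10916 genes tested. Of 62 ribosome biogenesis genes, which process ribosomal RNA and assemble the subunits, 0 were called, 52 were negative, and the median change was -0.09. Over all genes tested 5303 of 10916 were negative, and the median was 0.01. Both KO lines lay below both cKO lines for 20 of the 62 and above for 4, against 21.2% and 21.4% of all genes. The smallest p of the 62 was that of Rsl1d1, with a change of -0.26. Of 32 genes of RNA polymerases I and III and their factors, 1 rose and 0 fell, a share near the 2.2% of all genes called. The gene that rose was Polr3gl, a subunit of RNA polymerase III, which read 319 and 277 in the cKO lines against 674 and 549 in the KO lines, a change of 1.02 (SE 0.19, adjusted p = 0.0477 in limma). Its call was lost without cKO line 2 (0.92, adjusted p = 0.11 in limma), without KO line 1 (0.88, adjusted p = 0.0793), with no filter (adjusted p = 0.0967), with a filter on the lower 60% (adjusted p = 0.0501), when all probe sets were averaged (adjusted p = 0.059) and in limma with no variance trend (adjusted p = 0.0869).

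Among 11 translation elongation genes and other well-known TOP genes 0 were called, with a median change of -0.05, and the smallest p was that of Hnrnpa1, with a change of 0.18. Eef1a1, the main elongation factor, read 20168, 19479, 20149 and 17602, with KO line 2 lowest as for Rplp0. Among 26 initiation factors 0 were called, with a median of -0.03, and Eif3d had the smallest p, with a change of -0.17. Of 16 regulators of ribosomal protein synthesis 0 were called, with a median of -0.04 and the smallest p for Yy1, with a change of 0.27. Mycn, a driver of ribosome production in ES cells, had -0.09, and Myc had -0.30 (adjusted p = 0.549 in limma). Of 20 chaperones and importers of ribosomal proteins 0 were called, with a median of -0.06 and Nap1l1 at -0.16. Fau, which encodes a small subunit protein fused to a ubiquitin-like peptide, had -0.07.

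Of 77 mitochondrial ribosomal protein genes, the counterparts that serve the organelle's own translation, 0 were called, the median change was -0.05, and Mrps6 had the smallest p, with a change of -0.30. The lines were ordered differently in the cytosolic and mitochondrial lists. The median of line 1 minus line 2 was -0.23 for the mitochondrial list and 0.07 for the cytosolic one. KO line 2 was the lowest array for 2 of the 77 mitochondrial genes (2.6%), against 25 of 47 cytosolic ones, and KO line 1 was the lowest for 51 of 77, against 23.7% of all genes. KO line 1 was also the lowest for 54.8% of ribosome biogenesis genes and 60% of chaperones and importers. Its share was 43.8% for RNA polymerases I and III, 42.3% for initiation factors, 25% for regulators and 9.09% for elongation genes. The differences between the lists were not tested.

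**Figure D5:**
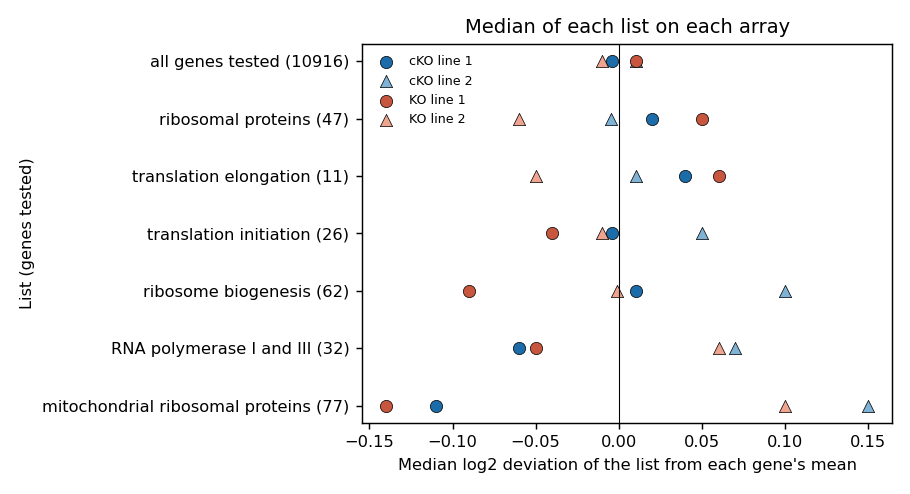
For each list, with the number of genes tested, the median log2 deviation from each gene's mean is shown for the 4 arrays, blue for cKO and red for KO, circles for line 1 and triangles for line 2. KO line 2 is the lowest array for the cytosolic ribosomal proteins (-0.06) and for translation elongation (-0.05), while both line 2 arrays are the highest for the mitochondrial ribosomal proteins (0.15 and 0.10).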

How the data were processed

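The authors deposited a linear intensity for each probe set on each array. The submitters' processing notes name MAS5; its version and settings are not given in the sources used here. On all 4 arrays the trimmed mean signal (2% from each end) was 500.0, and medians ran from 64.4 to 81.6. Of 45101 probe sets, 64 were controls, 34945 others named 1 gene in the platform's annotation, 932 named several and 9160 none. Symbols were updated through Entrez identifiers in RefSeq (GRCm38.p6) for 34741 probe sets and kept for 204.

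The probe set of highest mean log2 signal stood for each gene, and genes in the lower 40% (signal under 77.7) were left out, leaving 10916. KO and cKO were compared on log2(signal + 4.79), 4.79 being the 10th percentile of all values, with limma 3.58.1 in R 4.3.3 (lmFit, eBayes with trend, 2 residual and 5.13 prior degrees of freedom) and Benjamini-Hochberg adjustment over all genes tested. Summaries and plots used Python 3.11.15. On 20 simulated data sets of 10916 genes, each with 200 changed genes, this comparison recovered 39.4% of 2-fold and 88.1% of 4-fold changes, and 5.19% of calls were false. The simulated noise was normal, independent between arrays and drawn from the fitted variance model. These shares hold for that model and do not cover noise that arrays share.

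The members and lists were chosen with earlier results of these data known. Genes named are Kdm6a, the 6 members of largest change in each direction, the brightest and dimmest members, paralogues, stalk, 5S and X-linked members, and for each other list up to 4 called genes or the 1 of smallest p. Others are examples chosen after their values were seen. Motifs were also chosen then. Promoter windows and starts came from RefSeq (GRCm38.p6).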

Additional observations from a re-analysis of the deposited data

How the results depend on the processing

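The count of ribosomal protein genes called stayed at 0 in limma under every alternative run except the line number as a replicate block, where it was 1, Rpl37 (0.43, adjusted p = 0.0117). The labels do not pair the lines. The deviations of the line 1 arrays from their group means had a correlation of 0.52 across all genes tested and 0.39 across the members, which share 4 arrays. The replicate block called 1048 genes in all, against 240 without it. The count of all genes called was 147 without a filter, 154 with a filter on the lower 60%, 40 with a filter on the lower 90%, 129 with the mean of all probe sets and 28 without the variance trend. With 1 array left out it ran from 228 to 432, the highest without KO line 1, and the members' median change from -0.05 to 0.03. The members' median of line 1 minus line 2 was 0.01 with quantile normalization and -0.20 with centring on the array median. Over 15 alternatives with 1 value per gene, 15 of the 47 members kept the sign of their change wherever they were tested and 32 did not. None of these 32 was called in limma in any of these settings, and the largest change among them was 0.21 in size. With the mean of all probe sets the sign turned for Rpl27 (0.06), Rpl35 (0.04), Rpl7 (0.02), Rps10 (-0.04), Rps15 (-0.09), Rps24 (0.14), Rps29 (-0.02), Rps6 (0.16), Rps9 (0.12) and Rpsa (0.42), and for Eif3d (0.05). Without probe sets ending in _x_at or _s_at it turned for Rpl13a (-0.11), Rpl22 (-0.01), Rpl35 (0.02), Rpl41 (0.33), Rps10 (-0.03), Rps18 (-0.08), Rps20 (-0.14) and Rps24 (0.17). With centring it turned for Rpl10a (-0.04), Rpl13a (-0.03), Rpl22 (-0.02), Rps28 (-0.02) and Rps7 (-0.03). With 1 array left out the sign turned for 24 members. Their ranges were -0.08 to 0.10 for Rpl10a, -0.03 to 0.06 for Rpl13a, -0.35 to 0.07 for Rpl14, -0.13 to 0.02 for Rpl19, -0.03 to 0.09 for Rpl22, -0.18 to 0.04 for Rpl27, -0.09 to 0.05 for Rpl37a, -0.13 to 0.05 for Rpl38, -0.16 to 0.39 for Rpl39, -0.16 to 0.01 for Rpl4, -0.05 to 0.01 for Rpl6 and -0.12 to 0.05 for Rpl7. They were -0.23 to 0.03 for Rpl7a, -0.15 to 0.07 for Rpl7l1, -0.14 to 0.09 for Rps24, -0.17 to 0.04 for Rps25, -0.27 to 0.01 for Rps26, -0.05 to 0.30 for Rps27, -0.03 to 0.08 for Rps28, -0.07 to 0.04 for Rps3a1, -0.03 to 0.21 for Rps4x, -0.32 to 0.07 for Rps6, -0.03 to 0.06 for Rps7 and -0.12 to 0.01 for Rpsa. Rpsa and Rps6 each had a second probe set, under the filter level on every array, with changes of 0.90 and 0.44. The mean of all probe sets took these in. The causes were not tested. A group reduced to 1 array took its spread from the remaining pair. Saturation of bright probes was not tested.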
